A study of Mus musculus with 6 samples.

Results

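The genes described here are those of the NF-kappaB transcription factors and of the inhibitors and the kinase that feed back on them. The list named 10 genes by symbol (Nfkb1, Nfkb2, Rela, Relb, Rel, Nfkbia, Nfkbiz, Bcl3, Tnfaip3 and Ikbke). They were matched to probe sets, the groups of short probes that read 1 transcript on this array, whose annotation gives exactly 1 symbol. That left 9 of the 10 genes, among 18193 genes measured in all. Nfkb1 was paired with no probe set in the annotation used and was not analysed here. Where a gene had several probe sets, the one with the highest mean over the 6 arrays stood for it and the others served as a check; no difference between the groups entered the choice.

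RNA came from the subventricular zone, the stem cell niche along the lateral ventricle, of C57BL/6 mice, all adult males. In 3 samples the mice had undergone middle cerebral artery occlusion (MCAO), which models stroke by blocking the vessel supplying the striatum and lateral cortex, and the tissue was taken on the side of the lesion. In the other 3 the mice had undergone sham surgery. All were killed 48 h after surgery, no transgene or drug is named, and each sample was hybridised to a 1-colour array. A growth field of the labels speaks of isolated cells, while the other fields describe dissected tissue. The labels do not say whether a sample was a mouse of its own; the p-values therefore rest on the spread between samples, and that spread may be technical.

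NF-kappaB is a family of dimeric transcription factors that is held in the cytoplasm by inhibitor proteins with ankyrin repeats. Receptors for tumour necrosis factor, interleukin-1 and microbial products activate a kinase complex that marks the inhibitor for destruction, and the freed dimer moves to the nucleus. Among the genes it switches on are several of its own subunits and inhibitors, which limits the response. In the injured brain the pathway is best known from microglia, astrocytes and endothelial cells. The activity of the factors is set largely by protein degradation and movement to the nucleus, which transcript levels do not measure.

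The annotated start sites of these genes were searched for the sequence the factors bind, because several genes of the list are known as targets of the factors. RefSeq windows on GRCm38.p6 (250 bases before a start site to 50 after it) were found for 7 of the 10 genes; for Nfkb1, Relb and Nfkbiz none was matched. The kappaB consensus, a 10-base motif searched on both strands, was found in windows of 5 of the 7 (Nfkb2, Rel, Nfkbia, Bcl3 and Tnfaip3), and in 8.46% of all 32851 windows. At the level of genes it was found for 9.55% of the 27025 with a window. The lines below give 30 bases on the strand of the gene for 1 match per gene, the one nearest a start site; capitals mark the match. They are matches of letters and not measured sites of binding.
Bcl3: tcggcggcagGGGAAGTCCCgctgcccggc
Nfkbia: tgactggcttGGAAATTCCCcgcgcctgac
Rel: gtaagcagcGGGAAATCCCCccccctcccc
Tnfaip3: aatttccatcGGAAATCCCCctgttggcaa
Nfkb2: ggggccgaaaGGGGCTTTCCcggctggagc
The Bcl3 stretch lies at chr7:19822734-19822763 on the minus strand, with the match at bases 3 to 12 after the start. The Nfkbia stretch lies at chr12:55492657-55492686 on the minus strand, with the match on the opposite strand from 29 to 20 bases before the start. The Rel stretch, at chr11:23771041-23771070 on the minus strand, holds overlapping matches 92 to 82 bases before the start. The Tnfaip3 stretch, at chr10:19015403-19015432 on the minus strand, has its match on the opposite strand, 12 to 3 bases before the start. The Nfkb2 stretch lies at chr19:46304716-46304745 on the plus strand, with the match 11 to 2 bases before a start. That start is the first of those with a match in their window, and the gene's locus begins upstream of it.

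At 48 h the estimated differences of this family between MCAO and sham tissue were mostly small. With 3 arrays per group some of them were bounded only loosely. The 95% confidence intervals of the limma fit reached 1.67-fold for Nfkbia and 1.45-fold for Rela. With limma's moderated test, adjusted by Benjamini-Hochberg over every gene, 0 of the 9 passed the threshold of 0.05, against 1.12% of all genes that rose and 0.0165% that fell. At an unadjusted p under 0.05, 1 of the 9 was higher, Bcl3, against 6.32% of all genes. With the sample number as a block, Bcl3 rose at an adjusted p of 0.0146 and the other 8 did not pass; 4.83% of all genes rose and 1.31% fell in that fit. Of the 9, 8 were higher in MCAO and 1 was lower (47.7% of all genes were higher), and the differences ran from −0.09 to 0.44 on the log2 scale, with a median of 0.15 (all genes, −0.0064). In whole tissue, a change in the number of cells of a type and a change in RNA per cell cannot be told apart.

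The arrays numbered 1 stood apart. Samples carry the numbers 1 to 3 in each group. Deviations from the group means correlated at 0.77 between samples numbered 1, and at 0.44 and 0.48 for numbers 2 and 3. Between samples of different numbers the correlations ran from −0.59 to 0.29, the highest for MCAO 3 with sham 2. For each gene the deviations within a group sum to 0, so these correlations depend on each other. The pairing is therefore less certain for numbers 2 and 3. Over all genes the arrays numbered 1 separated from the other 4 along the first principal component, which held 40.8% of the variance. Control RNA spiked in at labelling also read lower on them, with means over 24 probe sets of 7.69 and 7.96 log2, while the remaining arrays read 8.65 to 9.23. The comparisons are therefore given with the sample number where it changes a call, and with the differences within same-numbered samples.

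**Figure D1:**
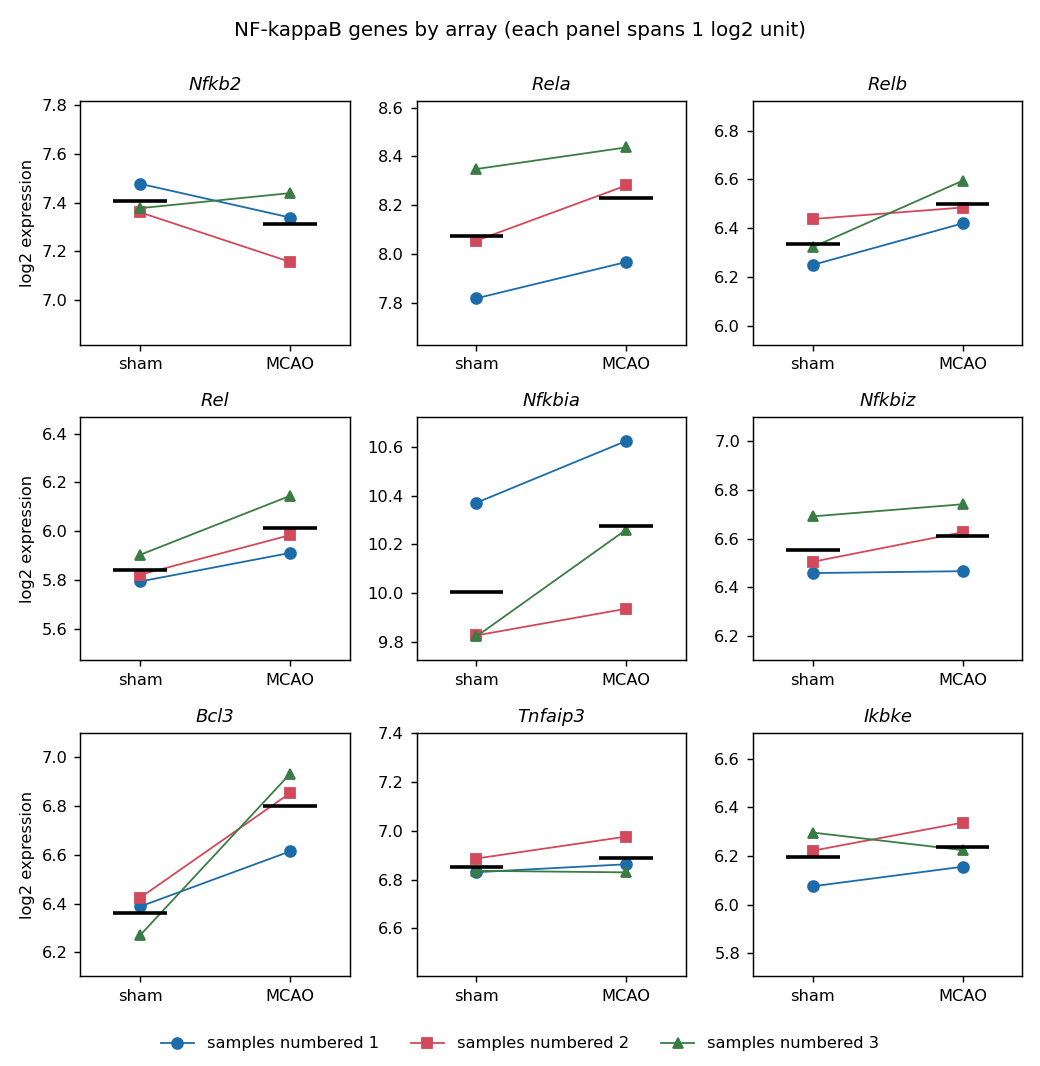
The log2 expression of the 9 genes is plotted by group, with 1 point per array, a line joining samples of the same number and a black bar at the mean of 3 arrays; each panel has its own level but spans the same 1 log2 unit. Bcl3 shows the largest step between the groups, and in both groups the array numbered 1 is the highest for Nfkbia and the lowest for Rela.

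Among the factors, the subunits with a transactivation domain read slightly higher after MCAO and did not pass. Rela, the p65 subunit of the most common dimer, read 7.97, 8.28 and 8.44 log2 in MCAO samples 1 to 3 and 7.82, 8.05 and 8.35 in sham samples 1 to 3. The groups overlapped widely, since in both of them sample 1 was lowest and sample 3 highest. By limma the difference was 0.15 ± 0.16 log2 (SE over 3 arrays per group), at an adjusted p of 0.935, and within same-numbered samples it was 0.15, 0.23 and 0.09. The block narrowed the standard error to 0.068 without a call (adjusted p = 0.254). With single arrays left out the difference ran from 0.03 (without sham 1) to 0.29 (without sham 3), and it passed in none of these fits.

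Rel, the c-Rel subunit found mainly in blood-derived cells, read 5.91, 5.98 and 6.14 in MCAO and 5.79, 5.82 and 5.90 in sham. All 3 MCAO values lay above the sham values, but the nearest were only 0.0075 apart, and 8.4% of all genes had groups separated in that direction. The difference was 0.17 ± 0.085 (SE, n = 3 per group; adjusted p = 0.669), and 0.12, 0.16 and 0.24 within same-numbered samples. Relb, the subunit of the slower alternative pathway that responds to lymphotoxin and CD40, read 6.42, 6.48 and 6.59 in MCAO and 6.25, 6.44 and 6.32 in sham. Its groups overlapped only through sham 2, which lay above MCAO 1, and the difference was 0.16 ± 0.084 (SE, n = 3 per group; adjusted p = 0.707). With the block Rel and Relb had adjusted p = 0.194 and 0.254 by limma.

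Nfkb2 encodes p100, at once the precursor of the p52 subunit and an inhibitor of Relb. It was the only gene of the 9 with a lower mean in MCAO, by limma at −0.09 ± 0.092 log2 (SE over 3 arrays per group), at an adjusted p of 0.928 by limma. The values were 7.34, 7.16 and 7.44 in MCAO and 7.48, 7.36 and 7.38 in sham, so that MCAO 2 was lowest and the groups overlapped. Within samples numbered 3 the difference was 0.06, opposite in sign to the −0.14 and −0.20 within those numbered 1 and 2. These values come from probe set 1429128_x_at, whose name marks probes that may bind related transcripts. The gene's dimmer probe set, 1425902_a_at, read 0.12 ± 0.11 higher in MCAO, so no direction could be assigned to Nfkb2.

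**Figure D2:**
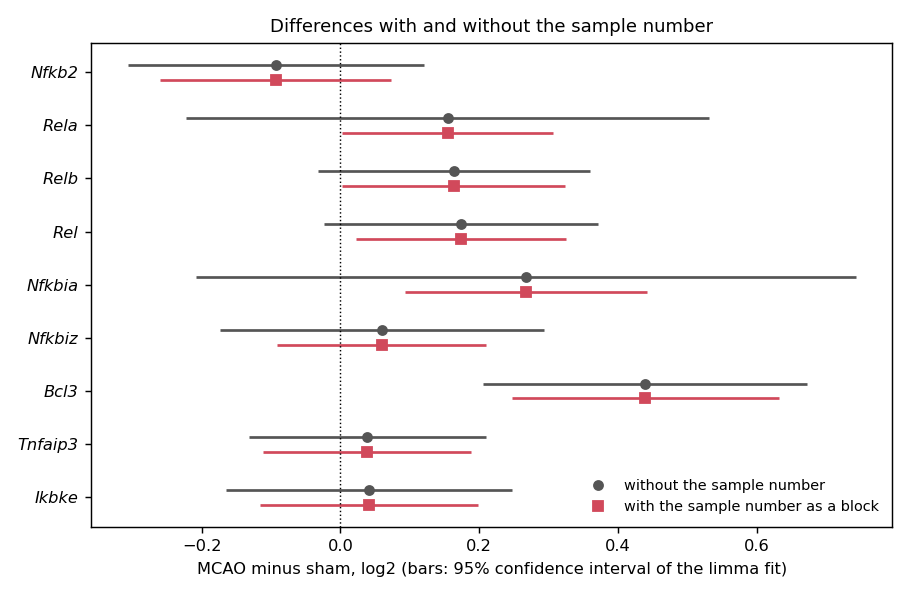
The difference between MCAO and sham in log2 units is drawn for each gene with the 95% confidence interval of the limma fit, without the sample number (grey circles) and with it as a block (red squares). The point estimates are identical in both fits; the block narrows the interval of Nfkbia from −0.21 to 0.74 down to 0.09 to 0.44, and that of Rela from −0.22 to 0.53 down to 0.0025 to 0.31.

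Bcl3 and Nfkbia had the 2 largest differences of the 9 genes. Bcl3, an atypical inhibitor that sits in the nucleus on p50 and p52 dimers and can turn them into activators, read 6.61, 6.85 and 6.93 log2 in MCAO and 6.39, 6.42 and 6.27 in sham. The groups did not overlap; the lowest MCAO value, in sample 1, lay 0.19 above the highest sham value. The difference was 0.44 ± 0.10 log2 (SE, n = 3 per group), a 1.36-fold higher level with a 95% confidence interval of 1.15 to 1.59. Signal was low in sham, where the mean of 6.36 lay below 6.42, the 30th percentile of mean level over all genes. Within same-numbered samples Bcl3 was higher by 0.23, 0.43 and 0.66. By limma it did not pass over all genes (adjusted p = 0.128, the 369th smallest p of 18193) and rose with the sample number as a block (adjusted p = 0.0146). Without MCAO 1 it also rose, by 0.53 (adjusted p = 0.0465 by limma), and without each of the other 5 arrays it did not pass, at differences from 0.37 to 0.47 (adjusted p = 0.226 to 0.5).

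Nfkbia encodes IkappaB-alpha, the inhibitor that is destroyed on activation and then resynthesised as a direct target. It read 10.62, 9.94 and 10.26 in MCAO and 10.37, 9.83 and 9.82 in sham. The groups overlapped because both arrays numbered 1 were high, sham 1 lying above MCAO 2 and MCAO 3. The difference was 0.27 ± 0.20 log2 (SE, n = 3 per group; adjusted p = 0.876), with 0.25, 0.11 and 0.44 within same-numbered samples. With the block the standard error was 0.078 and the adjusted p by limma 0.0814, still short of the threshold. With single arrays left out the difference ran from 0.09 (without MCAO 1) to 0.45 (without sham 1), and it passed in none of these fits. The mean of its probe sets gave 0.15 (adjusted p = 0.930 by limma). Nfkbia had 4 further probe sets, of which 3 read higher in MCAO by 0.16 to 0.21 and 1 read −0.07. None of them passed, and among the higher ones 1438157_s_at and 1449731_s_at may bind related transcripts. The probe set 1438157_s_at had both arrays numbered 1 above the other 4, at 9.62 and 9.46 against 8.45 to 8.81.

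Nfkbiz encodes IkappaB-zeta, a nuclear inhibitor protein that is itself induced and is needed for a second wave of NF-kappaB targets. Its probe sets disagreed. The brightest, 1448728_a_at, read 6.47, 6.63 and 6.74 in MCAO and 6.46, 6.51 and 6.69 in sham, with overlapping groups and a difference of 0.06 ± 0.10 log2 (SE, n = 3 per group), at an adjusted p of 0.966 by limma. The probe set 1417483_at read 6.58, 6.89 and 6.72 in MCAO and 6.17, 6.11 and 6.18 in sham. All MCAO values lay above the 3 sham values, which were close together; 7.1% of all probe sets were separated in that direction. In the limma fit over the 34945 probe sets with 1 symbol it rose by 0.57 ± 0.091 (SE, n = 3 per group; adjusted p = 0.0463), or 1.49-fold, where 0.644% of probe sets rose. Here too the sham mean was low, at 6.15 against 6.42 for the 30th percentile of mean level over all genes.

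The rise read by 1417483_at passed with the sample number as a block (adjusted p = 0.00462 by limma), as did 3.01% of probe sets. It did not pass on the deposited values without quantile normalization (0.58, adjusted p = 0.0610) or after aligning the medians of the arrays (0.57, 0.0719), nor without MCAO 2, MCAO 3, sham 1, sham 2 or sham 3 (0.49 to 0.59, adjusted p = 0.103 to 0.238). The remaining probe set, 1457404_at, read 0.11 ± 0.099 higher with overlapping groups. Taken array by array, the reading of 1417483_at minus that of 1448728_a_at was 0.11, 0.26 and −0.02 in MCAO and −0.29, −0.39 and −0.51 in sham. These probe sets were set against each other after their values were seen, so the offset is given with no test. The annotation ties both probe sets to the same transcript record, and which part of the transcript each reads was not examined. With the mean of its 3 probe sets, Nfkbiz read 0.25 higher (adjusted p = 0.216 by limma).

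**Figure D3:**
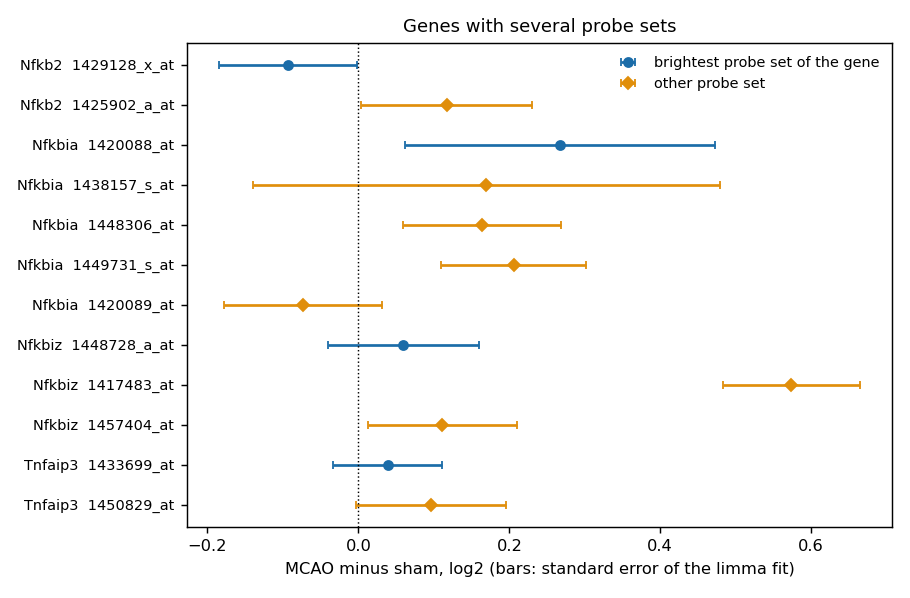
For the 4 genes with several probe sets, the difference between MCAO and sham in log2 units is plotted per probe set, with the standard error of the limma fit as bars; blue circles mark the brightest probe set of a gene and orange diamonds the others. The Nfkbiz probe set at 0.57 stands away from the gene's other 2, at 0.06 and 0.11, and Nfkb2 and Nfkbia each have probe sets on both sides of 0.

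The ubiquitin editor and the inducible kinase were close to level between the groups. Tnfaip3 encodes A20, which removes activating ubiquitin chains from the signalling complexes below the receptors. It read 6.86, 6.98 and 6.83 in MCAO and 6.83, 6.89 and 6.84 in sham, which overlap almost fully. The difference was 0.04 ± 0.074 log2 (SE, n = 3 per group, adjusted p = 0.971 by limma). Its 95% confidence interval ran from −0.13 to 0.21, so that for this probe set a level above 1.16-fold lies outside it. The second probe set of Tnfaip3 read 0.10 ± 0.099 higher, also without passing. Its 95% confidence interval was wider, from −0.13 to 0.33, so the bound of 1.16-fold does not hold for both probe sets.

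Ikbke encodes IKK-epsilon, an inducible kinase related to the core kinases that also feeds the interferon response. It read 6.16, 6.34 and 6.22 in MCAO and 6.08, 6.22 and 6.30 in sham, again overlapping. The difference was 0.04 ± 0.089 (SE, n = 3 per group; adjusted p = 0.977), with a 95% confidence interval from −0.16 to 0.25. Within same-numbered samples it was 0.08, 0.12 and −0.07.

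Compared within same-numbered samples, 8 of the 9 genes were higher in MCAO for samples 1, 8 for samples 2 and 7 for samples 3, where 50%, 43% and 55.1% of all genes were. Rela, Relb, Rel, Nfkbia, Nfkbiz and Bcl3, or 6 of the 9, were higher in all 3, as were 20% of all genes. Over all probe sets of the family, 15 of 17 were higher in MCAO, as were 45.7% of all probe sets, and 1 rose (0.644% of all). These genes share arrays and in part a regulator, so the counts are not independent observations, and 8 of the 9 single differences did not pass in either fit.

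Other genes of the pathway were read from the same fit, and the lists were not compared with each other by a test. The lists were chosen with earlier results of these data known, so setting their counts beside all genes tests nothing. Over all genes 1.12% rose, and 6.32% were higher at an unadjusted p under 0.05 by limma. Upstream, 0 of 9 measured ligands passed with or without the block, and 0 had an unadjusted p under 0.05 by limma. Their median difference was 0.02. The smallest p belonged to Il1a, interleukin-1 alpha, at 0.14 ± 0.090 log2 (SE, n = 3 per group; adjusted p = 0.827). Il1b, interleukin-1 beta, named after its value was seen, read 0.07 higher (adjusted p = 0.935 by limma).

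Of 12 receptors 1 rose and 11 did not pass. The median was 0.19, and MCAO was higher for 11 (10 on deposited or median-aligned values). Of the 12, 6 had an unadjusted p under 0.05 by limma, all higher, and 6 had all MCAO values above sham. Over all genes 1.12% rose, 47.7% were higher, 6.32% were higher at that unadjusted p and 8.4% had all MCAO values above sham. The riser was Tlr2, a receptor for bacterial lipoproteins and damage signals on microglia and other myeloid cells. It read 7.21, 6.80 and 7.23 in MCAO and 6.15, 6.28 and 6.20 in sham, without overlap. Tlr2 rose 1.83-fold, by 0.87 ± 0.12 log2 (SE, n = 3 per group), with an adjusted p of 0.0180 by limma. From a sham mean of 6.21, Tlr2 started below the 30th percentile of mean level over all genes (6.42). It lost the call without MCAO 3, sham 1, sham 2 or sham 3 (0.80 to 0.91, adjusted p = 0.0579 to 0.116). With the block 4 of the 12 receptors rose, against 4.83% of all genes. Besides Tlr2 they were, named after their values were seen, Tnfrsf12a, the receptor of the cytokine TWEAK, at 0.75, Tnfrsf1a, the main receptor of tumour necrosis factor, at 0.72, and Tlr3, a sensor of double-stranded RNA, at 0.41, whose probe set may bind related transcripts.

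Of 21 kinases and adaptors 0 passed by limma, and the median was 0.01. Only 1 was higher at an unadjusted p under 0.05 (6.32% of all genes), and 1 rose with the block (4.83% of all genes). That gene was Myd88, the adaptor shared by Toll-like and interleukin-1 receptors, which read 6.75, 7.05 and 7.31 in MCAO and 6.46, 6.64 and 6.50 in sham. Its groups did not overlap, and the difference was 0.51 ± 0.14 log2 (SE, n = 3 per group; adjusted p = 0.223, and 0.0119 with the block).

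Of 15 further inhibitors 0 passed by limma. Among them 2 were higher at an unadjusted p under 0.05 (6.32% of all genes) and 2 rose with the block (4.83% of all genes). The median was −0.0031, with 7 higher and 8 lower (0.03 and 0.02, with 8 higher, on deposited and median-aligned values). The smallest p belonged to Commd1, which promotes degradation of nuclear p65, at 0.27 ± 0.11 log2 (SE, n = 3 per group; adjusted p = 0.482, and 0.0423 with the block), read by a probe set that may bind related transcripts. The other one that rose with the block, named after its value was seen, was Zfp36, which destabilises cytokine messenger RNA, at 0.32 (adjusted p = 0.0279 with the block by limma).

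Among 33 genes known as NF-kappaB targets 3 rose and 30 did not pass; 25 were higher in MCAO, 14 had groups that did not overlap, all with MCAO above, and the median was 0.16. An unadjusted p under 0.05 by limma was reached by 14 of the 33, all of them higher. Over all genes 1.12% rose, 47.7% were higher, 6.32% were higher at that unadjusted p and 8.4% had all MCAO values above sham. The list was chosen with earlier results of these data known, so an excess over these shares may come from that choice. Lcn2, an iron-sequestering lipocalin of reactive astrocytes and neutrophils, read 7.72, 8.15 and 8.27 in MCAO and 6.02, 6.29 and 6.43 in sham, and rose 3.49-fold. Ptx3, a soluble pattern receptor, read 6.79, 7.05 and 7.29 in MCAO and 6.05, 6.07 and 5.81 in sham, and rose 2.10-fold. Vcam1, a leukocyte adhesion molecule, read 9.23, 8.64 and 8.89 in MCAO and 8.16, 8.11 and 8.01 in sham, and rose 1.77-fold. In all 3 genes every MCAO value lay above every sham value, and the adjusted p-values by limma were 0.00402, 0.0127 and 0.0462.

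Lcn2 kept its call whichever array was left out. Ptx3 lost it without MCAO 2 (adjusted p = 0.0522) or sham 3 (0.0845). Vcam1 lost it without MCAO 3, sham 1, sham 2 or sham 3 (0.0961 to 0.236), on the deposited values (0.0804), after aligning array medians (0.0805) and when its probe sets were averaged, which gave 0.53 (0.0749). With the block 11 of the 33 rose, against 4.83% of all genes. The other 8, named after their values were seen, were the chemokines Cxcl10 (1.16) and Ccl2 (0.66), the growth factor Csf1 (0.47), the stress response gene Ier3 (0.43), the peptide transporter Tap1 (0.39), the immune surface protein Cd83 (0.37), the immunoproteasome subunit Psmb9 (0.37) and the adhesion molecule Icam1 (0.31). Several textbook targets, also picked after their values were seen, read within 0.1 of 0 and passed in neither fit: Il6 −0.03, Nos2 −0.01, Sele −0.03, Cxcl1 0.01 and Cxcl2 0.08, on the log2 scale. By mean level Il6, Cxcl2, Sele and Nos2 lay below the 30th percentile of all genes, and the Cxcl1 probe set may bind related transcripts. The sham means of Ptx3 (5.98) and Lcn2 (6.24) also lay below that percentile, at 6.42 log2, though their means over all arrays did not.

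**Figure D4:**
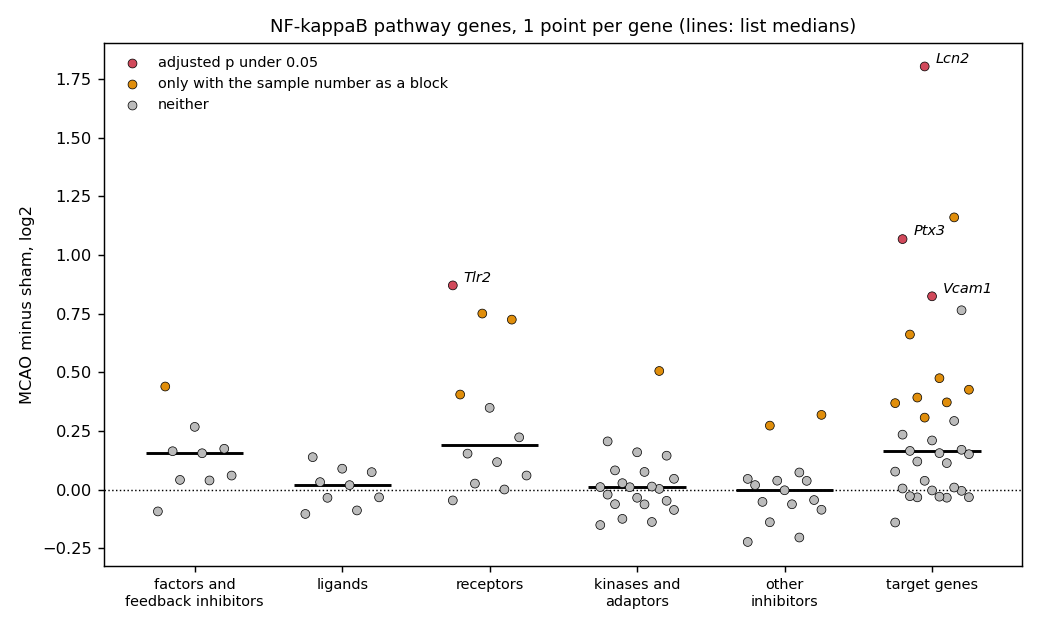
Each point is 1 measured gene, placed by its difference between MCAO and sham in log2 units within the factors and feedback inhibitors or a list of the pathway; horizontal bars are list medians, red points passed without the block and orange ones only with it. The 4 red genes are Tlr2 among the receptors and Lcn2, Ptx3 and Vcam1 among the targets, and the orange point of the first column is Bcl3 at 0.44.

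Most of these genes are also expressed by immune cells, whose markers differed between the groups in the same arrays. Over all genes 1.12% rose and 47.7% were higher, and the marker lists too were chosen with earlier results of these data known. The microglia list summed to 77.1 to 82.0 log2 over 9 genes in MCAO and 73.0 to 73.9 in sham; 2 of the 9 rose, Fcrls by 1.58 and Aif1 by 1.10, and Cx3cr1 read 0.46 (adjusted p = 0.458 by limma). The monocyte and macrophage list summed to 59.4 to 60.6 over 9 genes in MCAO and 56.1 to 56.8 in sham; 4 rose, with Mrc1 at 0.96 and Cd14 at 0.95 first by p, while Ccr2 read 0.04 (adjusted p = 0.983 by limma). Of these 9, 7 were higher in MCAO; Lyve1 read −0.02 and Cd163 −0.13, the latter with every MCAO value below the sham values, without passing. The other 2 that rose, F13a1 at 0.62 and Plac8 at 0.64, lost their calls without MCAO 3 or any 1 of the sham arrays (adjusted p = 0.0524 to 0.181). Aif1 lost its call without MCAO 2, MCAO 3, sham 2 or sham 3 (adjusted p = 0.0522 to 0.148) and on the deposited values (0.0558). The Aif1 probe set may bind related transcripts. The astrocyte list summed to 105.1 to 105.9 over 10 genes in MCAO and 98.4 to 100.9 in sham; 2 rose, Aldh1l1 by 0.89 and Aqp4 by 0.97, and Gfap read 2.69 higher (adjusted p = 0.141, and it rose with the block). Of the 10, 8 were higher and Slc1a2 was lowest at −0.28, with a list median of 0.30, and Gfap is part of the summed level. When sham 3 was left out Aldh1l1 had an adjusted p of 0.0547, and for Aqp4 leaving out MCAO 3 or any sham array gave 0.0816 to 0.200, and the deposited values 0.0866, none of which pass. The part of these cells in the differences of the NF-kappaB genes was not tested.

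Markers of other leukocytes and of vessels did not pass. Over all genes 47.7% were higher, and 6.32% were higher at an unadjusted p under 0.05 by limma. The neutrophil list summed to 50.7 to 51.4 over 8 genes in MCAO and 49.6 to 50.8 in sham. Of the 8, 5 were higher, from Cxcr2 at −0.09 to S100a9 at 0.31. S100a8, read by a probe set that may bind related transcripts, was at 0.24. The lymphocyte list summed to 58.4 to 60.0 over 9 genes against 57.6 to 59.3 in sham, with 6 of 9 higher, from Cd4 at −0.13 to Cd79b at 0.22, and Cd3g at 0.14. The endothelial list summed to 66.6 to 68.5 over 9 genes against 66.6 to 67.2, with 7 of 9 higher, from Flt1 at −0.12 to Cldn5 at 0.28, and Esam at 0.23 and Pecam1 at 0.16. In these 3 lists 0 genes passed with or without the block by limma, and 1, 0 and 2 had an unadjusted p under 0.05. In sham tissue 0 of 8 neutrophil markers, 0 of 9 monocyte markers and 1 of 9 lymphocyte markers lay above the median gene.

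The dissected tissue carried markers of the niche and also those of striatal neurons and oligodendrocytes. In sham, 6 of 7 neuroblast markers, 6 of 6 ependymal markers, 10 of 10 astrocyte markers, 5 of 5 striatal neuron markers and 6 of 6 oligodendrocyte markers lay above the median gene, as did 2 of 6 choroid plexus markers. None of the neuroblast, striatal, ependymal, choroid plexus or oligodendrocyte markers passed. By smallest p these were Cd24a (0.66) and Sp8 (0.29) for neuroblasts, Drd1 (−0.34) and Penk (−0.17) for striatal neurons, Foxj1 (0.25) and Rarres2 (0.30) for ependyma, Ttr (−0.28) and Clic6 (−0.19) for choroid plexus, of whose 6 markers 4 were higher with a median of 0.06, and Mal (−0.19) and Mbp (−0.07) for oligodendrocytes. With the block Cd24a and Rarres2 rose and Drd1 fell. The probe sets of Rarres2, Ttr and Clic6 may bind related transcripts.

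The genes whose pattern over the 6 arrays was most like that of Bcl3, the member with the smallest p, were Fas, Hdac1, Rac2, Ada and Creld2. Likeness was the root mean square difference between values centred per gene, which was 0.056 log2 for Fas and 0.068 to 0.079 for the other 4. Fas, a death receptor of the tumour necrosis factor receptor family, read 7.08, 7.35 and 7.30 in MCAO and 6.79, 6.94 and 6.77 in sham. These genes were picked by their values on the same arrays, so a pattern shared with Bcl3 follows largely from the choice. As for Bcl3, each of the 5 had no overlap between the groups and its smallest MCAO value in sample 1. Over all genes 8.4% had all 3 MCAO values above all 3 sham values.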

How the data were processed

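The authors deposited log2 expression for each of 45101 probe sets on 6 arrays. How background, probe summary and normalization were handled is not given in the sources used here, and the base of the logarithm is read from the range of the values. The 64 control probe sets were left out. As the 90th percentiles of the arrays differed by 0.21, quantile normalization was added. The array's annotation gave 1 symbol to 34945 probe sets, several to 932 and none to 9160; the probe set with the highest mean over 6 arrays stood for a gene (18193 genes).

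The 2 groups were compared with the lmFit and eBayes functions of limma 3.58.1 (R 4.3.3), 2-sided, with Benjamini-Hochberg adjustment over all genes; the code was tested on simulated data. Differences are MCAO minus sham with limma's moderated SE. Probe sets of a gene were compared in a fit over all probe sets with 1 symbol. A rank or permutation test of 3 against 3 cannot go below 0.1.

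Deviations from the group means correlated at 0.77, 0.44 and 0.48 between samples numbered 1, 2 and 3, so the number was also fitted as a block. Between different numbers the correlation reached 0.29, for MCAO 3 with sham 2. Where the pairing comes from is not stated in the labels.

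The genes and lists were chosen with earlier results of these data known. Named are the 9 measured members; in each of 5 pathway lists all genes past the threshold, or else the one with the smallest p; the 2 smallest p of each of 11 marker lists plus Aif1, Cx3cr1, Ccr2, S100a8, Gfap and Pecam1; and the 5 genes most like the member with the smallest p. The lists were matched for 90 of 97 pathway genes and 84 of 94 markers. Alternatives were the deposited or median-shifted values, the block, each array or both arrays numbered 1 left out, the mean of probe sets, a filter at the 30th percentile of mean level, and an intensity trend or robust variance. Promoter windows come from RefSeq (GRCm38.p6).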

Additional observations from a re-analysis of the deposited data

How the results depend on the processing

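The number of family members past the threshold, 0 of 9, was 1 with the replicate block on quantile-normalised or deposited values, 0 to 1 with single arrays left out, and 1 without both arrays numbered 1; the call was that of Bcl3 each time. Bcl3 read 0.44 with either block, 0.37 to 0.53 with single arrays left out and 0.55 without both arrays numbered 1 (adjusted p = 0.0489 by limma), and it was higher in MCAO under all 15 alternatives (adjusted p = 0.0136 to 0.5). The second Nfkbiz probe set read 0.58 on the deposited values and 0.57 after aligning array medians, passing in neither, and 0.49 to 0.65 with single arrays left out. The other 8 members passed under none of the alternatives that could be run for them; Nfkb2, Nfkbiz, Tnfaip3 and Ikbke changed sign under at least 1. Over all genes the count of 207 was 1117 with the replicate block, 817 with the block on deposited values, and 43 (without sham 3) to 210 with single arrays left out; 98, 125 and 131 passed without MCAO 3, sham 1 and sham 2. The 4 pathway genes became 18 and 15 with the block, 7 without both arrays numbered 1 and 1 to 6 with single arrays left out, with 2 each without sham 1 or sham 2 and 1 without sham 3. The 8 cell type markers became 19 and 18 with the block and 3 to 9 with single arrays left out, with 4, 5, 4 and 3 without MCAO 3, sham 1, sham 2 and sham 3. Leaving out an array leaves 3 against 2, and the cause of a lost call was not tested. The filter on dim genes removed Relb, Rel and Ikbke, and the files used give no measure of signal over background.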
